A study of Mus musculus with 6 samples.

Results

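The genes described here are the mouse matrix metalloproteinases (Mmp), the membrane-anchored ADAM proteases and the secreted ADAMTS proteases, as measured in 6 RNA-seq libraries of CD4+ T cells. Members were chosen by symbol: a row of the count table belonged to the family where the gene symbol of its RefSeq accession began with Mmp, Adam or Adamts followed by a digit. This gave 50 of the 13177 rows, namely 19 Mmp, 24 Adam and 7 Adamts genes. RefSeq lists 76 genes with such symbols, and the other 26, among them Adamts13, Adam23 and Mmp25, were not analysed here. No measured value other than the presence of a row entered the choice, but the family was picked with results of these libraries already known, so its levels are given as a description.

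Mouse CD4+ T cells were isolated with magnetic beads and transfected with synthetic miR-155, a microRNA that is induced when lymphocytes are activated. The control group was 3 libraries collected at 0 h and the second group was 3 libraries collected at 8 h after transfection. The treatment label of both groups names the oligonucleotide, and no library was collected at 8 h without it, so time and exposure cannot be told apart. The labels state neither strain, age and genotype of the mice nor whether replicates were separate animals or cultures. P-values therefore measure only the spread between these libraries, which may be technical. The 8 h libraries are labelled CD4+ in their source and CD5+ in their description.

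All 3 classes are zinc proteases. Matrix metalloproteinases cut collagens and other proteins of the extracellular matrix, and are secreted or held at the membrane. ADAM proteases sit in the membrane and release the outer parts of neighbouring surface proteins, a reaction called shedding. In T cells ADAM10 and ADAM17 are known for releasing tumour necrosis factor, the interleukin 6 receptor and Notch fragments. ADAMTS proteases are secreted and process proteoglycans, procollagens and other matrix proteins. Many other ADAM genes are known mainly from sperm, where several have lost the catalytic residues and serve in adhesion to the egg.

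Library totals ran from 4564010 to 13675127 counts. CPM are counts scaled to a common library size after TMM normalisation. Counts of T cell markers ranged from 5 to 10 for Cd4 and from 3020 to 27651 for Cd5. The housekeeping genes Actb and Gapdh, abundant in most cells, were counted only 1 to 5 and 1 to 11 times per library. It is thus uncertain that a row holds the usual count of a gene, and this limits every level given here. In bulk RNA, fewer cells of a type and less RNA per cell cannot be told apart.

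Because the oligonucleotide was that of miR-155, the 3' UTR of each member, the longest in GENCODE M21, was searched on the transcript strand for the matches to the seed, bases 2 to 8 of the microRNA. The guide strand miR-155-5p (RefSeq, GRCm38.p6, chr16:84714143-84714165, + strand) is printed first, with its seed in capitals, followed by the 6 sites found in 5 members, with the matched bases in capitals.
mmu-miR-155-5p: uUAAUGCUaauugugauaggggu
Adam10, first site: aaatggaggggGCATTAAaaaatgtaagct
Adam10, second site: aaacttgaaatGCATTAAtaaatagacttg
Adamts4: ccgcatctttgAGCATTAgttttctcatgt
Adamts5: ctgtcaaatatAGCATTActgacttcgttt
Mmp19: ggttccacctcAGCATTAcagaaattaata
Mmp20: gtgttcacggcAGCATTAttcacaatagtc
The searched letters were AGCATTA, the complement of the seed, and GCATTAA, its shorter form followed by A. These 2 motifs overlap by 6 bases, and the 8-base form that joins them, AGCATTAA, was found in 0 members. In GRCm38 the windows lie at chr9:70779375-70779404 and chr9:70780190-70780219 for Adam10 (+ strand), chr1:171259820-171259849 for Adamts4 (+), chr16:85857301-85857330 for Adamts5 (-), chr10:128800779-128800808 for Mmp19 (+) and chr9:7674861-7674890 for Mmp20 (+). All lie in the 3' UTR of the GENCODE transcript. The Adamts5 window lies beyond the end of the gene in the RefSeq table. A site was present in 10% of the 50 members and in 12.4% of the 12579 rows with a 3' UTR. Among tested rows, the 3 members with a site, Adamts5, Mmp19 and Mmp20, had a median log2 fold change of -3.29 and the 23 without one of -1.23. The same medians over all tested rows were -0.03 for 862 rows with a site and 0.07 for 7079 rows without. All 3 members were highest in control 3, and without it Adamts5 was at 5.96 and Mmp20 at -2.74 while Mmp19 was no longer tested. Adam10 and Adamts4 did not pass the filter. A match is a description of letters in the 3' UTR and not a measured site.

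Most members lay at low levels. Of the 50 rows, 26 (52.0%) passed the edgeR filter and were tested, against 63.0% of all rows. The filter asks for a minimum level in at least 3 libraries, so a gene that is high in 1 or 2 libraries can fail it, and a gene that is near 0 in 1 group can pass through the other. The median over members of the mean CPM was 3.07, against 5.15 over all rows. To compare levels between genes, CPM were divided by transcript length in kilobases, and each gene was placed by its median over the 6 libraries. The median member stood at 0.296 CPM per kb, and the median row of the table at 0.855 CPM per kb. Adam18, a sperm gene, stood highest at 13.7 CPM per kb, at percentile 87.2 of all rows. It was followed by Adamts10 (4.89), Mmp7 (4.16), Mmp14 (3.05), Adam9 (2.61), Mmp10 (2.31) and Adam8 (1.92), all in CPM per kb. At the other end stood Mmp1b (0.0256) and Adam10 (0.0465). For all 49 pairs of neighbours in this order the ranges over the 6 libraries overlapped, so the order of neighbouring members is not fixed by these data.

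**Figure D1:**
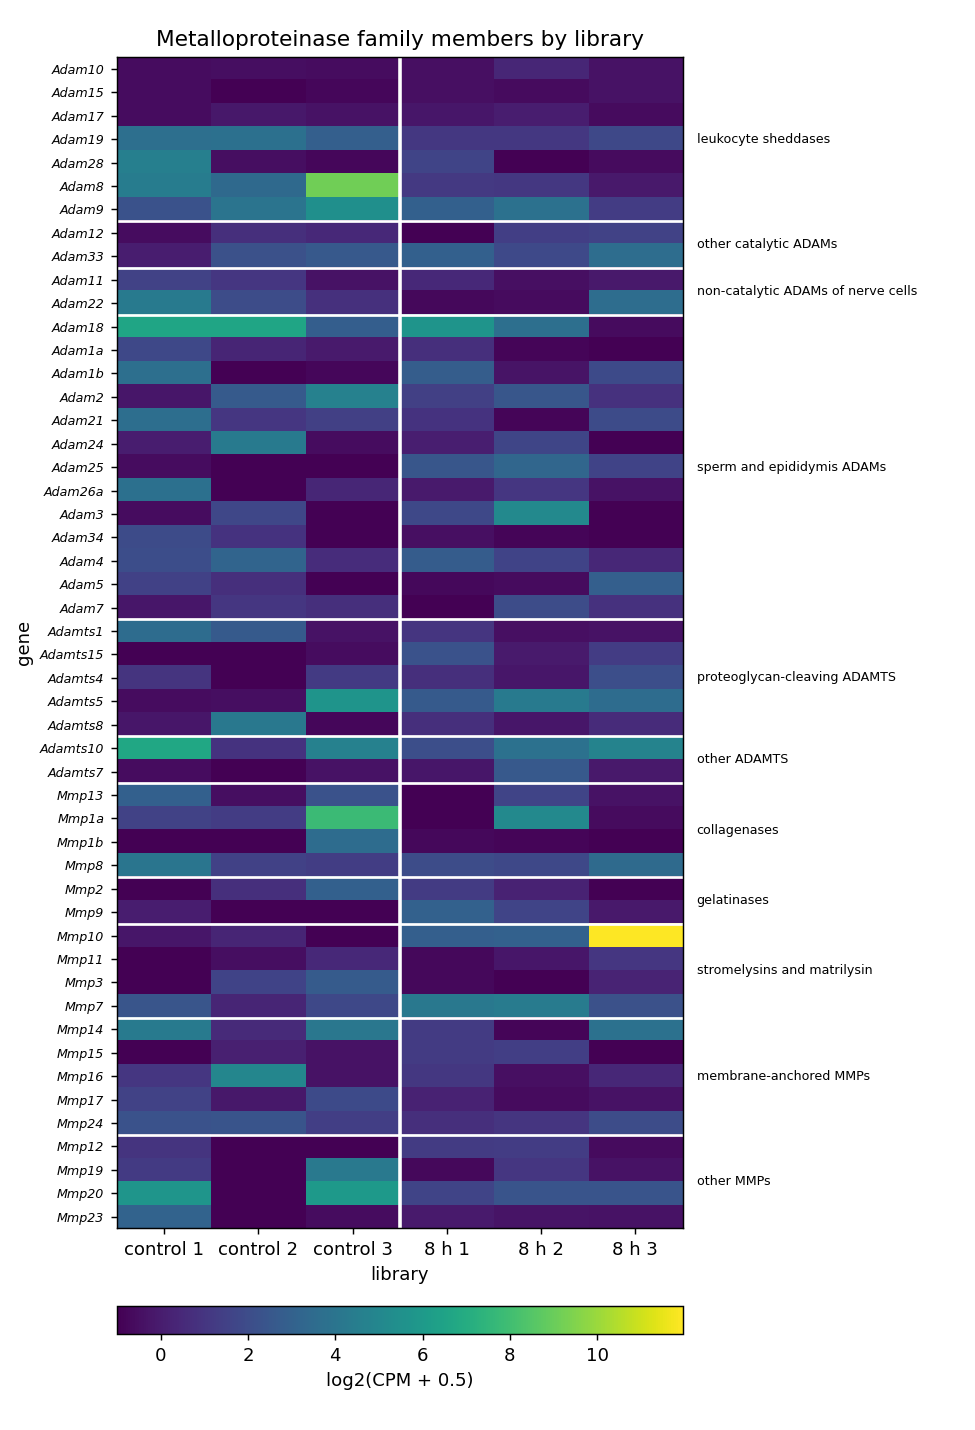
Level of each of the 50 members (rows, grouped by known role) in each of the 6 libraries (columns), coloured by log2(CPM + 0.5). The brightest cells belong to 2 genes: Mmp10 reached 3970 CPM in 8 h replicate 3 and Adam8 reached 564 CPM in control replicate 3.

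For 29 of the 50 members (58.0%) more than 50% of the CPM summed over the 6 libraries came from 1 library, against 43.6% of all rows. The library in which a member peaked was control 1 for 14 members, control 2 for 7, control 3 for 11, 8 h replicate 1 for 2, 8 h replicate 2 for 9 and 8 h replicate 3 for 7. The SD of log2(CPM + 0.5) within groups had a median of 1.91 over the 26 tested members and 1.71 over the 8308 tested rows.

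The summed level of the family was 475, 264 and 1110 CPM in controls 1 to 3 and 170, 219 and 4110 CPM in the 8 h replicates. In 8 h replicate 3 a single gene, Mmp10, made up 96.5% of the family's counts. With Mmp10 set aside, a choice made after its values were seen, the controls held 263 to 1110 CPM and the 8 h libraries 142 to 212 CPM. The groups did not overlap in that sum. With the top member of each library set aside instead, the sums were 373, 167 and 546 CPM in controls 1 to 3. The 8 h replicates then held 119, 186 and 142 CPM, so the groups overlapped. Control 3, the highest, drew 50.8% of its family counts from Adam8.

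The leukocyte sheddases, 7 ADAM genes known from blood cells, were compared with the sperm and epididymis ADAMs, of which 13 had a row. All 7 sheddases had a row, but 9 of the 22 sperm and epididymis ADAMs of RefSeq were not analysed here. Medians of the sperm list thus cover only the genes with a row. Both lists were drawn up with results of these data known. The sheddases stood at a median percentile of 7.60 among all rows by CPM per kb, and the sperm genes at 40.9. In 5 of the 6 libraries the median sperm gene had more CPM per kb than the median sheddase. In control 1 the order was the other way, with 1.04 CPM per kb for the median sheddase and 1.01 for the median sperm gene. In 8 h replicate 2 the values were 0.178 for the sheddases and 0.95 for the sperm genes. Of the 13 sperm genes, 12 had a higher median CPM per kb than each of Adam10, Adam15 and Adam17. Other sheddases went the other way. Adam9 (2.61) and Adam8 (1.92 CPM per kb) stood above every sperm gene but Adam18, as the next, Adam2, was at 1.43. Adam19 stood at 1.03 and Adam28 at 0.056 CPM per kb, so the order of the 2 lists does not hold for each sheddase.

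The central sheddases of T cells were among the lowest members and were not tested. Adam10 (chromosome 9, 70678944 to 70780229, GRCm38), which carries both printed GCATTAA sites, was counted 1, 1 and 2 times in controls 1 to 3 and 2, 11 and 2 times in the 8 h replicates. Adam17 (chromosome 12, 21323509 to 21373632), the protease that releases tumour necrosis factor, was counted 1, 2 and 3 times in controls 1 to 3 and 3, 7 and 1 times in the 8 h replicates. Adam15, a widely expressed relative that binds integrins, had 1, 0 and 1 counts in the controls and 2 in each 8 h library. At these depths no difference between groups could be detected in any of them. Counts of 0 allow up to 3 counts, which is 0.587 CPM in control 2, and this limit covers counting error only. Adam28, known from lymphocytes and epididymis, had 135 counts in control 1, 23 in 8 h replicate 1 and 0 or 1 in the other libraries.

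Adam8, Adam9 and Adam19 were the 3 tested sheddases. Adam8 (chromosome 7, 139978932 to 139995207), a protease of leukocyte migration, was counted 120, 52 and 6283 times in controls 1 to 3 and 15, 22 and 3 times in the 8 h replicates. This corresponds to a mean of 199 ± 317 CPM at 0 h and of 1.26 ± 0.726 CPM at 8 h (SD, n = 3 libraries). Every 8 h library lay below every control, and control 3 stood far above the other controls. edgeR put the log2 fold change at -7.27 ± 2.38 (SE) and the adjusted p at 0.342, and the fold change became -3.58 without control 3. DESeq2 gave Adam8 no p because it set the row aside as an outlier.

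Adam19 (chromosome 11, 46054502 to 46147347), which sheds neuregulin and other ligands, had the smallest within-group spread of the 26 tested members. It was counted 74, 67 and 78 times in controls 1 to 3 and 14, 22 and 21 times in the 8 h replicates, which is 7.01 to 13.1 CPM at 0 h and 1.62 to 3.00 CPM at 8 h. The groups did not overlap, and the SD of log2(CPM + 0.5) within groups was 0.46. edgeR put the log2 fold change at -2.40 ± 1.68 (SE) and the adjusted p at 0.694, and the fold change stayed between -2.72 and -2.24 when any 1 library was left out. The unadjusted p was 0.153 with edgeR and 0.0166 with DESeq2, whose adjusted p was 0.136. DESeq2 gave similar unadjusted p-values to Adamts1 and Mmp16 (0.0135 each), Mmp19 (0.025) and Mmp20 (0.0278), and called none of these. Adam9 (chromosome 8, 24949611 to 25017040), a widely expressed sheddase, was counted 24, 79 and 490 times in controls 1 to 3 and 64, 185 and 14 times in the 8 h replicates. Its groups overlapped, with a mean of 21.2 ± 20.5 CPM at 0 h and of 7.70 ± 5.87 CPM at 8 h (SD, n = 3 libraries).

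Summed over the 7 sheddases, the controls held 39.5 to 616 CPM and the 8 h libraries 6.28 to 18.5 CPM. Without Adam8 the sums were 29.4 to 51.6 CPM in controls and 5.85 to 16.8 CPM at 8 h. Different genes carried the control sums. Adam28 gave 23.8 CPM in control 1, Adam9 and Adam19 gave 15.5 and 13.1 CPM in control 2, and Adam9 gave 44.0 CPM in control 3. The groups did not overlap in either sum, and no test was made on a sum of members. Sums of the sperm and epididymis ADAMs did overlap, at 38.4 to 150 CPM in controls and 20.3 to 78.8 CPM at 8 h. Those of the stromelysins and matrilysin, which include Mmp10, were higher at 8 h. They stood at 4.31 to 9.97 CPM in controls and at 25.3, 28.0 and 3970 CPM in the 8 h replicates.

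Among sperm ADAMs, Adam18 (chromosome 8, 24602246 to 24674755), a gene of the sperm surface, was counted 550, 498 and 77 times in controls 1 to 3 and 447, 175 and 1 times in the 8 h replicates. The groups overlapped, with a mean of 67.1 ± 52.1 CPM at 0 h and of 21.6 ± 26.8 CPM at 8 h (SD, n = 3 libraries). Its log2 fold change was -1.63 ± 1.77 (SE; edgeR adjusted p = 0.825). Its immediate neighbour Adam3, known for sperm binding to the egg, lay 2477 bases away and followed another course. Adam3 was counted 1, 15 and 0 times in controls 1 to 3 and 26, 452 and 0 times in the 8 h replicates. The next gene along, Adam5, was counted 13, 6 and 0 times in controls 1 to 3 and 1, 2 and 50 times in the 8 h replicates.

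Adam25 (chromosome 8, 40752208 to 40756187), a testis gene, was counted 1, 0 and 0 times in controls 1 to 3 and 44, 124 and 18 times in the 8 h replicates. Every 8 h library lay above every control. Pooled over libraries the ratio of rates was 140, with a 95% interval of 24.8 to 5560 (exact Clopper-Pearson, counting error only). The fitted log2 fold change of 6.43 ± 1.84 (SE) depends on the prior count, and the edgeR adjusted p was 0.342. DESeq2 called it, with an adjusted p of 0.00163, and over all alternatives the adjusted p ran from 0.00163 to 0.998. The row passed the filter only through the 8 h libraries, so it had to differ between groups to be tested, and its test is a description. It was the only member that any of the tools called. Its near neighbour Adam24 was counted 3, 102 and 2 times in controls 1 to 3 and 5, 37 and 0 times in the 8 h replicates.

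The other sperm members varied from library to library in both groups. Adam2, a subunit of the sperm protein fertilin, was counted 2, 30 and 283 times in controls 1 to 3 and 19, 69 and 9 times in the 8 h replicates. Adam1b, its fertilin partner, was counted 74, 0 and 1 times in controls 1 to 3 and 57, 4 and 23 times in the 8 h replicates. Its near-identical copy Adam1a was counted 17, 4 and 5 times in controls 1 to 3 against 10, 1 and 0 in the 8 h replicates, and the counting could have split reads between the 2 copies. Adam4, a testis gene, was counted 21, 44 and 12 times in controls 1 to 3 and 55, 34 and 6 times in the 8 h replicates. Adam21, also of testis, went from 71, 8 and 25 counts in the controls to 12, 1 and 24. Adam7, an epididymis gene, had 2, 8 and 13 counts in the controls, then 0, 47 and 9. Adam26a and Adam34 did not pass the filter, with highest counts of 76 and 19, both in control 1. At 8 h, 3 of the 8 tested sperm genes were above and 5 below their control values.

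The 8 markers of male germ cells, among them protamines and transition proteins that pack sperm DNA, summed to 6.02 to 21.9 CPM in controls and 34.4 to 107 CPM at 8 h. Prm2 gave 94.4 of the 107 CPM in 8 h replicate 1 and was at 0 in controls 2 and 3, and Ddx4, Zpbp, Tnp2 and Dazl were each at 0 in 1 control. Of the 5 tested markers 3 had higher values at 8 h, and Prm1 (-0.52) and Acr (-0.43; log2 fold changes) had lower ones. The part of these cells in the ADAM values was not tested.

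Of the ADAMs known from other tissues, Adam33, a protease of airway smooth muscle, was counted 3, 21 and 63 times in controls 1 to 3 and 63, 43 and 85 times in the 8 h replicates. Adam12, a muscle and fetal protease, was counted 1, 6 and 10 times in controls 1 to 3 against 0, 29 and 17 in the 8 h replicates and was not tested. Adam22, a nerve cell receptor without protease activity, was counted 110, 18 and 14 times in controls 1 to 3 and 1, 2 and 85 times in the 8 h replicates. The third 8 h library thus lay within the range of the controls and the other two below all of them. Adam11, its relative, had 3 to 14 counts in every library. Nerve cell markers summed to 7.64 to 146 CPM in controls and 5.19 to 76.5 CPM at 8 h, and their part was not tested. Syt1 alone gave 100 of the 146 CPM in control 1, and Tubb3 72.1 of the 76.5 CPM in 8 h replicate 1.

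Adamts1 and Adamts10 were both highest in control 1, and each of the other 5 ADAMTS genes in another library. Adamts10 (chromosome 17, 33523646 to 33553782), which acts on fibrillin microfibrils, was counted 583, 7 and 286 times in controls 1 to 3 and 33, 187 and 190 times in the 8 h replicates. Adamts5, a cartilage aggrecanase and one of the members with a printed AGCATTA site, was counted 1, 1 and 582 times in controls 1 to 3 and 50, 265 and 79 times in the 8 h replicates. Its log2 fold change was -0.52 ± 1.70 (SE) with all libraries and 5.96 without control 3, and neither passed edgeR's test. Adamts1, an inflammation-induced member, was counted 65, 30 and 3 times in controls 1 to 3 and 13, 3 and 2 times in the 8 h replicates. Its log2 fold change was -3.10 ± 1.53 (SE; edgeR adjusted p = 0.565). Adamts8 peaked at 92 counts in control 2, Adamts7 at 75 in 8 h replicate 2 and Adamts15 at 37 in 8 h replicate 1. Adamts4, with a site as well, had at most 27 counts, and these 4 genes were not tested.

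On chromosome 9 (GRCm38), 10 Mmp genes follow each other between 7272514 and 7699585, and 9 of them had a row. This cluster holds collagenases, stromelysins and matrilysin, enzymes of tissue remodelling. The consecutive genes Mmp1b, Mmp3 and Mmp1a each had their highest level in control 3, with 98.4%, 64.1% and 85.7% of their summed CPM there. The next gene, Mmp10, was highest in 8 h replicate 3. Mmp20, further along, was again highest in control 3, with 49.0% of its summed CPM. Mmp10, stromelysin 2, was counted 2, 4 and 0 times in controls 1 to 3 and 62, 102 and 27788 times in the 8 h replicates. Every 8 h library lay above every control, but 2 of the 3 stood at 7.17 and 7.56 CPM and the third at 3970 CPM. The log2 fold change of 11.78 ± 3.33 (SE) was the highest of all 8308 tested rows, and it was 4.36 without 8 h replicate 3. The row passed the filter only through the 8 h libraries, and its fold is taken over controls of 0 to 4 counts. The edgeR adjusted p was 0.342, and DESeq2 set the row aside as an outlier.

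**Figure D2:**
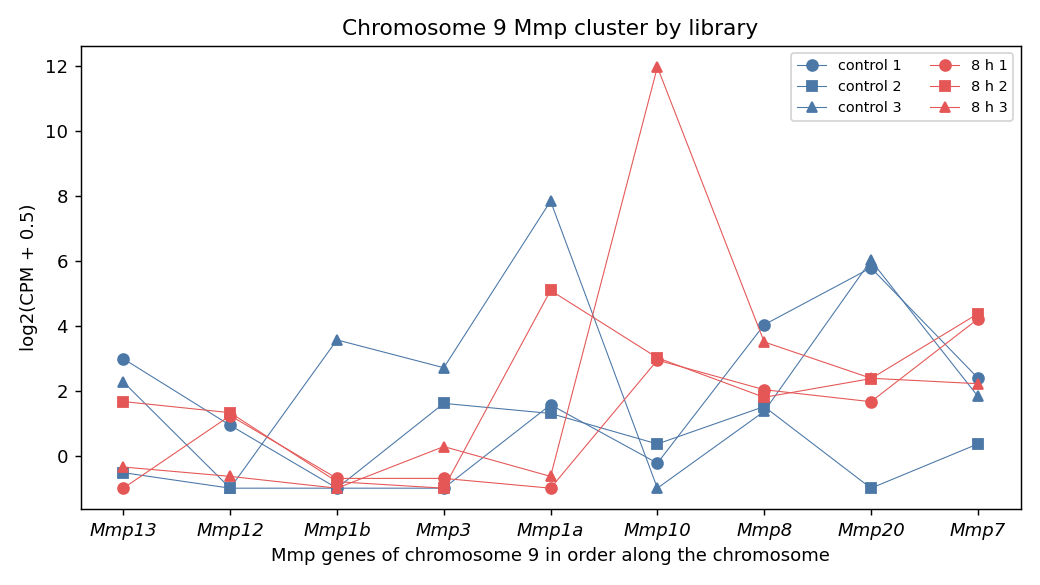
log2(CPM + 0.5) of 9 Mmp genes in their order along chromosome 9, with 1 symbol per library and thin lines joining the values of 1 library. Control 3 is highest at Mmp1b, Mmp3, Mmp1a (227 CPM) and Mmp20 (63.8 CPM), and 8 h replicate 3 at Mmp10 (3970 CPM).

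Mmp1a, an interstitial collagenase next to Mmp10, was counted 14, 10 and 2526 times in controls 1 to 3 and 0, 450 and 1 times in the 8 h replicates. Its fold change turned from -2.78 to 2.38 on the log2 scale without control 3. Its close copy Mmp1b had 126 counts in control 3 and 0 or 1 elsewhere, and reads could have been split between them. Mmp3, stromelysin 1, also peaked in control 3, with 67 counts. Mmp20, an enamel protease that carries a printed site, was counted 309, 0 and 710 times in controls 1 to 3 and 23, 63 and 33 times in the 8 h replicates. Controls 1 and 3 lay above every 8 h library and control 2 below them (log2 fold change -3.29 ± 1.85, SE; edgeR adjusted p = 0.621).

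Mmp7, matrilysin, stood at 4.75, 0.783 and 3.05 CPM in controls 1 to 3 and at 17.9, 20.1 and 4.14 CPM in the 8 h replicates. The lowest 8 h library, at 4.14 CPM, lay below the highest control, at 4.75 CPM. Its log2 fold change of 2.29 ± 1.72 (SE; edgeR adjusted p = 0.718) stayed between 1.86 and 2.84 without any 1 library. Mmp8, the collagenase of neutrophils, was counted 90, 12 and 23 times in controls 1 to 3 and 31, 40 and 76 times in the 8 h replicates, and Mmp13, collagenase 3, had 42, 1 and 48 against 0, 36 and 2. Mmp12, the macrophage elastase, had at most 27 counts and was not tested.

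Outside the cluster, Mmp9 (chromosome 2, 164940326 to 164955850), the gelatinase of activated leukocytes, was counted 3, 0 and 0 times in controls 1 to 3 and 67, 35 and 3 times in the 8 h replicates. The pooled ratio of rates was 26.3, with a 95% interval of 8.76 to 130 (exact Clopper-Pearson, counting error only), and the row did not pass the filter. The values of control 1, 0.528 CPM, and 8 h replicate 3, 0.428 CPM, overlapped. Mmp2, the gelatinase of stromal cells, was counted 0, 6 and 83 times in controls 1 to 3 and 16, 9 and 0 times in the 8 h replicates. Neutrophil markers summed to 12.8 to 51.1 CPM in controls and 6.28 to 32.5 CPM at 8 h over 8 of 10 genes, and 7 of the 8 were at 0 in at least 1 library. Macrophage markers summed to 48.2 to 94.9 CPM in controls and 13.8 to 376 CPM at 8 h. Mrc1 alone gave 356 of the 376 CPM, in 8 h replicate 3, while 5 of the 6 tested macrophage markers had lower values at 8 h. Neither set of cells was tested as a source of the Mmp values.

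The 5 membrane-anchored members summed to 27.3, 37.4 and 23.4 CPM in controls 1 to 3. In the 8 h replicates the sums were 7.17, 4.08 and 18.7 CPM. The sums did not overlap between groups, but different genes carried those of the controls. Mmp16 gave 30.7 CPM in control 2, and Mmp14 gave most of the sum in control 1 and 17.3 CPM in control 3. Each of the 5 members alone overlapped between groups. Mmp14 stood at 0.979 CPM in control 2 and at 1.85 CPM in 8 h replicate 1. The 3 that were tested, Mmp14, Mmp16 and Mmp24, all had lower values at 8 h, with a median log2 fold change of -1.23 and 0 called. Mmp14 (chromosome 14, 54431598 to 54442456), the membrane protease that activates Mmp2, was counted 108, 5 and 193 times in controls 1 to 3 and 16, 1 and 98 times in the 8 h replicates. Mmp24, a membrane protease known from nerve cells, had 24 counts in each control, and 10, 20 and 25 in the 8 h replicates. Mmp16 had 157 counts in control 2 and 3 to 14 elsewhere, and its log2 fold change of -3.58 became -0.01 without control 2. Mmp17 and Mmp15 reached 37 and 29 counts and were not tested. Mmp19, a widely expressed secreted member with a printed site, was counted 10, 0 and 203 times in controls 1 to 3 and 1, 21 and 2 times in the 8 h replicates. Mmp11 and Mmp23 reached 11 and 47 counts. Fibroblast and stromal markers summed to 21.6 to 303 CPM in controls and 78.4 to 351 CPM at 8 h, and endothelial markers to 40.6 to 203 and 10.5 to 30.1 CPM. Pdgfra alone gave 320 of the 351 CPM in 8 h replicate 3, and Pecam1 177 of the 203 CPM in control 1. The part of these cells was not tested.

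The comparison of 8 h with control cells, fitted over all 8308 tested rows, called 0 of the 26 tested members and 0% of all rows at an edgeR adjusted p under 0.05. An unadjusted p under 0.05 was found for 709 rows, and the lowest adjusted p of a member was 0.342. At an unadjusted p under 0.05, 3 members were higher at 8 h (Mmp10, Adam25 and Adam3), beside 4.51% of all tested rows. The 4 that were lower (Adam8, Mmp19, Mmp16 and Adamts1) stood beside 4.02% of all rows. DESeq2, run as an alternative, called 1 of the 22 members to which it gave an adjusted p, Adam25, and 6.06% of all such rows (4.8% of all tested rows). Among rows with an adjusted p it called 2.94% higher and 3.11% lower. All 8 h libraries lay above all controls for 2 members (Mmp10 and Adam25; 5.72% of all rows) and below them for 2 (Adam8 and Adam19; 5.08% of all rows). Mmp10 and Adam25 passed the filter only through the 8 h libraries, so their place in these counts is a description.

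By direction alone, 20 of the 26 tested members had lower values at 8 h and 6 had higher values, while 48.7% of all tested rows were lower and 51.3% higher. The median log2 fold change was -1.35 over the members and 0.06 over all rows. No test was made on this count. With limma-voom it was 18 of 26. Refits on fewer libraries tested more members, and 20 of 37 were lower without control 1 (45.7% of all rows tested there) and 20 of 34 without control 3 (43.6%). Of the members tested with all libraries, these refits put 16 of 26 and 17 of 25 lower. Without control 2 the count was 24 of 38 (45.3%). Without 8 h replicates 1, 2 and 3 in turn it was 22 of 32 (52.2%), 23 of 33 (53.7%) and 31 of 42 (51.5%). With no filter 32 of 50 members and 47.2% of all rows were lower. The members with higher values were Mmp10, Adam25, Adam3, Mmp7, Adam33 and Adam7. The direction of Adam7 turned with limma-voom and with the replicate block.

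**Figure D3:**
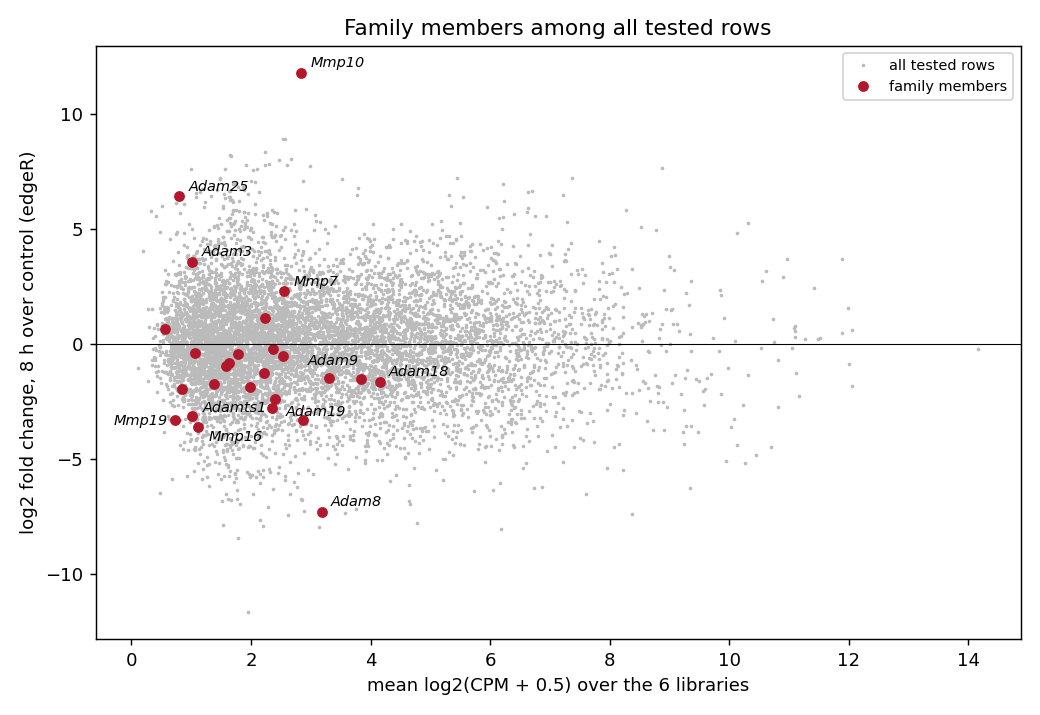
edgeR log2 fold change of 8 h over control against mean log2(CPM + 0.5) for 8308 tested rows (grey) and the 26 tested members (red). Members lie within the cloud of all rows except Mmp10, which has the highest fold change of the table at 11.78.

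**Figure D4:**
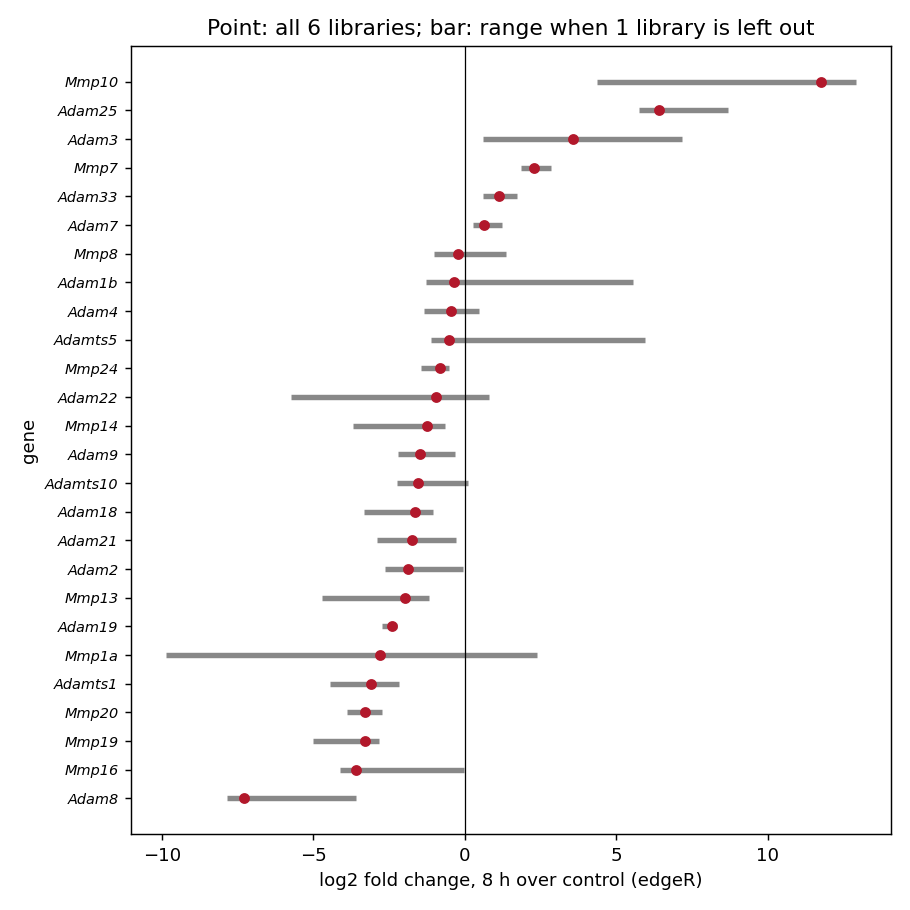
edgeR log2 fold change of each tested member with all 6 libraries (points) and its range when any 1 library was left out (bars). Adam19 and Mmp7 have short bars, while those of Mmp1a and Adamts5 cross 0.

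Proteins that control or meet these proteases were read from lists drawn up with the family. Of 9 inhibitors, 5 were tested, 2 higher and 3 lower at 8 h with 0 called. Timp1, which blocks most matrix metalloproteinases, was counted 143, 9 and 12 times in controls 1 to 3 and 22, 28 and 43 times in the 8 h replicates. Also tested were Reck (0.95), A2m (1.54), Spock1 (-0.35) and Spock2 (-0.69; all log2 fold changes). Timp2 had 1 to 5 counts in every library. Reck, a membrane inhibitor, was counted 74, 4 and 11 times in controls 1 to 3 against 36, 315 and 7 in the 8 h replicates. Of 8 analysed iRhom and tetraspanin genes, which carry ADAM17 or ADAM10 to the cell surface, 5 were tested, 2 higher and 3 lower with 0 called. Tspan14, a partner of ADAM10, was counted 3369, 145 and 281 times in controls 1 to 3 and 91, 51 and 71 times in the 8 h replicates, so its groups did not overlap. Its log2 fold change was -4.72 ± 2.14 (SE; edgeR adjusted p = 0.538). Rhbdf1, an iRhom, was counted 1, 10 and 6 times in controls 1 to 3 and 2, 1155 and 353 times in the 8 h replicates. Frmd8, which stabilises iRhoms, peaked at 7829 counts in control 3, the library where 17.3% of all tested rows had their highest CPM. Tspan15 and Tspan17, both ADAM10 partners, reached 176 counts in 8 h replicate 2 and 239 in control 3.

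Of the ADAMTS-like genes 2 were tested, and both had lower values at 8 h, Adamtsl4 with a log2 fold change of -3.27 and Papln of -0.84. Among 22 surface proteins known to be shed, 15 were tested, 8 higher and 7 lower at 8 h with 0 called, and the median log2 fold change was 0.31. Notch1 was counted 28, 16 and 46 times in controls 1 to 3 against 9, 122 and 35 in the 8 h replicates. Cd44 and Il6ra were not tested, with at most 17 and 59 counts. The 3 tested proprotein convertases, which cut the inhibitory propeptide from many family members, had log2 fold changes above 0 with 0 called. Each was highest in a single 8 h library and no shared rise was seen. Pcsk7 reached 28.4 CPM in 8 h replicate 1 but 1.93 and 4.0 CPM in replicates 2 and 3. Pcsk6 reached 82.4 CPM in 8 h replicate 2 but 3.24 and 0.285 CPM in replicates 1 and 3. The third was Furin, counted 72, 98 and 396 times in controls 1 to 3 and 15, 103 and 426 times in the 8 h replicates (log2 fold change 0.06 ± 1.69, SE; edgeR adjusted p = 0.997). In CPM, 8 h replicates 1 and 2 (1.73 and 7.64) lay below every control, the lowest of which was at 12.7. T cell markers summed to 3320 to 19100 CPM in controls and 5070 to 12200 CPM at 8 h, and B cell markers to 26.3 to 85.5 and 38.2 to 145 CPM. Lck alone gave 14600 of the 19100 CPM in control 3, and Cd3g 7700 of the 12200 CPM in 8 h replicate 3.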

How the data were processed

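RNA of mouse CD4+ T cells was made into TruSeq libraries, per the labels' protocols. Raw counts, whole numbers for 13177 RefSeq accessions in 6 libraries, were used as the authors deposited them. The submitters' processing notes name Bowtie, R 3.4.2 and GRCm38 without a role. The counting program, strand setting and any row filter were not found in these sources, so counts of near-identical or overlapping genes are uncertain. Columns were matched to samples by title, and 0 columns lay outside the series.

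Symbols came from the RefSeq table of GRCm38.p6 (12827 accessions) or GENCODE M21 (47), and 303 rows stayed unnamed. Transcript lengths came from GENCODE M21. Groups were compared on all rows with edgeR 4.0.16 in R 4.3.3 (TMM, filterByExpr, robust quasi-likelihood F test in its legacy form, group as the only term, two-sided, Benjamini-Hochberg at 0.05). The SE was taken as |log2 fold change| divided by the root of the F statistic. Library totals of 4564010 to 13675127 counts limit the precision of members with few counts. Alternatives were a replicate block, RLE scaling, no filter, DESeq2 1.42.0, the newer quasi-likelihood form, limma-voom (limma 3.58.1) and leaving out each replicate. The fits were tested on simulated counts.

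Members and lists were chosen with earlier results of these data known. Named were all tested members, untested ones with at least 10 counts in 1 library, and 11 genes at any count, several of which also met those rules. Also named were tested partner genes of the inhibitor, iRhom and tetraspanin lists with Il6ra, Notch1 and Cd44. Adamts13 was not analysed here, and 1 gene of the rule is not reported here.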

Additional observations from a re-analysis of the deposited data

How the results depend on the processing

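At an adjusted p under 0.05 the fit called 0 genes and 0 members with all libraries, with the replicate block, RLE scaling, no filter, the newer quasi-likelihood form, limma-voom and without each replicate (0 to 0). DESeq2 called 399 genes and 1 member. At an unadjusted p under 0.05 the counts were 709 genes with all libraries, 267 with the replicate block, 400 with limma-voom, 985 with the newer quasi-likelihood form and 1371 with DESeq2. The labels name no batch, so same-numbered libraries were not treated as pairs. Their deviations from the group means correlated at -0.009, 0.014 and -0.005, and those of differently numbered libraries at -0.024 to 0.029. As both kinds lay near 0, these values cannot decide whether libraries were paired. Of the 309 alternative values of the 26 log2 fold changes, 19 turned sign, in 8 members. With the replicate block these were Adam1b (2.24), Adam7 (-0.17), Adamts5 (3.71) and Mmp8 (0.22), and with limma-voom Adam1b (1.84), Adam7 (-0.45), Adamts5 (2.19) and Mmp8 (0.21). Leaving out 1 replicate gave -1.27 to 5.57 for Adam1b, -5.73 to 0.79 for Adam22, -1.35 to 0.46 for Adam4, -2.24 to 0.12 for Adamts10, -1.12 to 5.96 for Adamts5, -9.87 to 2.38 for Mmp1a and -1.01 to 1.38 for Mmp8. The cause was not tested. The summed level of the family at 8 h was 1500 CPM and ran from 195 CPM without 8 h replicate 3 to 2160 CPM without replicate 1, and that of the controls was 617 CPM and ran from 370 to 793 CPM.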
